A study of Mus musculus with 6 samples.

Results

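Untreated dendritic cells grown from mouse bone marrow with GM-CSF and interleukin-4 (IL-4) are described here from their 3 control libraries, out of the 6 libraries of the series. These were all the samples labelled control (titles imDC, imDC_r1 and imDC_r2), called replicates 1, 2 and 3 below. The other 3 samples, exposed to hydrogen peroxide as a model of oxidative stress, were not analysed here, and nothing below is a contrast with them. The 3 control samples carry the same description: femur and tibia marrow of male C57BL/6 mice aged 6 weeks, cleared of red cells by lysis and grown in medium with 10% FBS, GM-CSF at 20 ng/mL and IL-4 at 10 ng/mL. Cells were harvested on day 6 as immature dendritic cells and enriched on magnetic beads for CD11c, the integrin encoded by Itgax. Whether control cells were then kept for as long as the treated ones is not stated in the labels. No genotype beyond the strain and no agent beyond the cytokines is named for them. The culture is a mixed product of marrow progenitors, the bead step selects 1 surface protein that macrophages can also carry, and the labels do not say whether the 3 samples came from separate mice, separate cultures or 1 culture. Any spread given below is therefore only that among 3 samples and may be technical.

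GM-CSF drives marrow progenitors toward granulocytes, macrophages and dendritic cells through a receptor made of a private alpha chain and a beta chain shared with the IL-3 and IL-5 receptors, and it signals through the kinase JAK2 to STAT5. IL-4 acts through its own receptor alpha chain to STAT6, holds back macrophage development and turns on a set of genes known from alternatively activated macrophages. Dendritic cells take up antigen in an immature state and, once matured by microbial or inflammatory signals, present it on MHC molecules, display costimulatory ligands and follow CCR7 ligands to lymph nodes.

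Depth was nearly equal, at 16540573, 16670950 and 16232604 estimated counts in replicates 1, 2 and 3, over 17567 genes. A level is given as CPM, the counts a gene would have in a library of 1000000, scaled by the library total and edgeR's TMM factor, and 3 values in a row are those of replicates 1, 2 and 3. Counting error is small at this depth: 3 counts correspond to 0.177, 0.184 and 0.185 CPM. Replicate 1 stood apart from the other 2 in ways the shared label does not describe. The 4 Y-linked genes Ddx3y, Eif2s3y, Uty and Kdm5d summed to 103 CPM in replicate 1, 0.123 CPM in replicate 2 and 0.309 CPM in replicate 3, although all the mice were labelled male. Ddx3y, a Y-linked RNA helicase, had 42.6, 0 and 0 CPM, while its X-linked partner Ddx3x had 495, 486 and 501 CPM. The same replicate differed at many autosomal genes (described under agreement at the end), so most levels below are given library by library.

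The 17567 genes are those with a row in the deposited values, and every share below is of such genes only. List members without a row, such as Ins1, Krt14 and Cxcl13, are left out of the counts, and why they lack one is not known here. Of the 17567 genes, 11179 (63.6%) reached 1 CPM in every control library, and these are called detected below. Without replicate 1 the number was 11334. A level of 10 CPM in every library was reached by 8242 genes, 100 CPM by 1877 and 1000 CPM by 61. The median level was 9.77 CPM over all genes and 31.7 CPM over the detected ones. At the other end, 1853 genes (10.5%) had a count of 0 in all 3 libraries and a further 3818 had at least 1 count but stayed under 1 CPM in all 3. Abundance was concentrated: the single most abundant gene held 2.99% ± 0.146 (SD, n = 3) of all counts, the 10 most abundant 10.6% ± 0.602, the 100 most abundant 24.8% ± 1.75 and the 1000 most abundant 57.0% ± 1.71. Ranked by mean, 685 genes accounted for 50% of the counts and 4896 for 90%.

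Chil3, a secreted chitinase-like protein known as a marker of IL-4-exposed myeloid cells, ranked first in each library, with 27539, 31877 and 30335 CPM. Its close copy Chil4 had 22.6, 27.5 and 23.6 CPM, and how the counting divided reads between the 2 copies is not given in the sources used here. Mmp12, the macrophage elastase, ranked second by mean, with 10018, 18409 and 16253 CPM, and was lower in replicate 1. Psap, the precursor of the saposins that help lysosomal enzymes degrade sphingolipids, had 13684, 15853 and 14268 CPM. The first 3 genes by CPM were thus an IL-4-linked secreted protein, a secreted protease and a lysosomal precursor.

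Eef1a1, which carries aminoacyl-tRNA to the ribosome, had 8424, 9089.5 and 8428 CPM. The cytoplasmic actins Actg1 and Actb had 8795, 7959.9 and 7410.1 CPM and 5304, 5493 and 6288 CPM. Ccl22, a chemokine that attracts T cells bearing CCR4, was sixth by mean rank with 7547, 6547 and 6766 CPM, and the 3 libraries differed little. The ferritin heavy and light chains Fth1 and Ftl1, which store iron, had 4820.0, 7611 and 6637 CPM and 5840.4, 6722 and 6459.5 CPM. Both were lowest in replicate 1. Tmsb4x, which sequesters actin monomers, had 4882, 4431 and 4483 CPM. Ccl6 and Ccl9, CC chemokines of rodents, had 1932, 6081 and 5535 CPM and 1312, 4203 and 3913 CPM. Each was about 3 times higher in replicates 2 and 3 than in replicate 1 (ratios of the mean of those 2 to replicate 1 of 3.01 and 3.09). Csf2rb, the shared beta chain of the GM-CSF receptor, was twelfth, with 3120.0, 4413 and 4036 CPM.

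The remaining genes of the 25 most abundant had varied roles. Lpl, lipoprotein lipase, had 2645, 4032 and 4525 CPM and Ctsd, the aspartic protease cathepsin D, 3197, 3759 and 3292 CPM. Cd74, the MHC class II invariant chain, had 2986, 3186 and 2935 CPM, and Ctss, the protease that cleaves it, 2865, 2266 and 2012 CPM. Among these 12 genes Cd74 and Hspa8, a constitutive chaperone with 2199.8, 2073 and 2174 CPM, varied least between the libraries. Lgals3, which encodes galectin-3, had 3019.9, 4164 and 3810.3 CPM, Thbs1, thrombospondin 1, 2338, 3111 and 2991 CPM and Gpnmb, a transmembrane glycoprotein of myeloid cells, 2424, 2415 and 1994 CPM. The translocation factor Eef2 had 2478, 2888 and 2732 CPM, Lcp1, an actin-bundling plastin, 2014, 2889.8 and 3103 CPM, Vim, vimentin, 1883, 2599 and 2569 CPM and the glycolytic enzyme Gapdh 2160.2, 2689 and 2665 CPM. Itgax itself, the transcript of the selected surface protein, ranked 34 by mean, with 1492, 2188 and 1967 CPM.

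**Figure D1:**
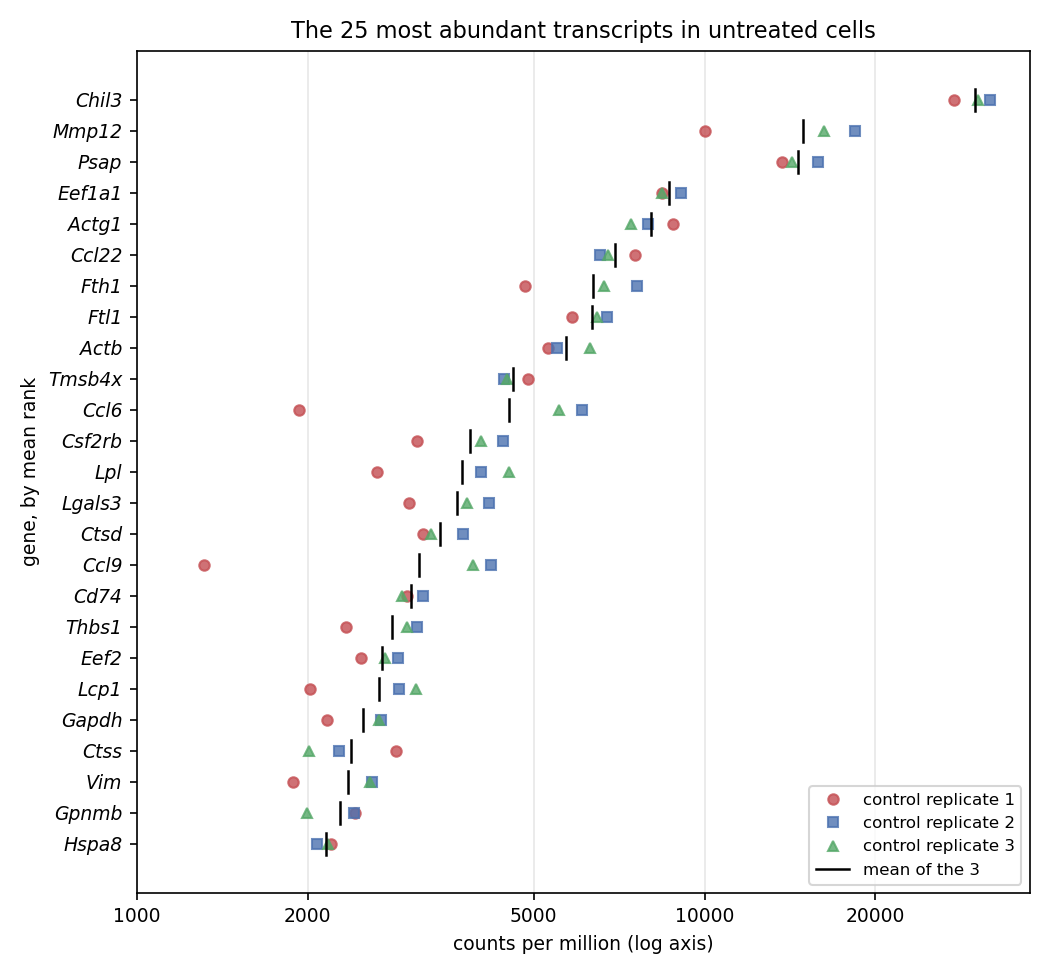
Levels of the 25 genes with the highest mean CPM. The horizontal axis is CPM on a log scale, the points are the 3 control libraries and the black strokes their means. Chil3 lies at 27539 to 31877 CPM in all 3 libraries, while replicate 1 lies far to the left for Ccl6 (1932 CPM) and Ccl9 (1312 CPM).

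CPM does not correct for transcript length, so order between genes was also read per kilobase of each gene's longest listed transcript. Chil3 remained first, at 19439 ± 1429 (SD, n = 3) CPM per kb, followed by Ftl1 at 6550.3 ± 468 (SD, n = 3), Psap at 5496 ± 422 (SD, n = 3) and Tmsb4x at 5323 ± 286 (SD, n = 3) CPM per kb. Of the 25 genes with the highest CPM, 16 were also among the 25 highest per kb, and of the first 100, 60. Long transcripts fell in rank. Ahnak, a giant scaffold protein, moved from rank 42 by CPM to rank 651 per kb, Thbs1 from rank 18 by CPM to rank 109 per kb, Csf2rb from rank 12 to rank 54 and Itgax from rank 34 to rank 115. Ccl17 moved up, from rank 65 by CPM to rank 13 per kb, at 2197 ± 1460.3 (SD, n = 3) CPM per kb with a wide spread between libraries. Chil3 at the top and the ferritins, actins and Psap near it are thus features of both orders.

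A list of 20 genes linked to IL-4 and alternative activation held 4.48% ± 0.118 of all counts (SD, n = 3), most of it Chil3, and 19 of its members were detected (95%, against 63.6% of all genes). Its median was 297 CPM. After Chil3 and Ccl22 came Mgl2, a galactose-binding lectin, with 1418, 2354 and 2561 CPM. Ccl17, the other CCR4 ligand, had 263, 1562 and 1564 CPM and was 5.95 times higher in replicates 2 and 3 than in replicate 1. Arg1, the arginine-degrading enzyme of alternative activation, went the other way, with 1422, 533 and 606 CPM, as did Tfrc, the transferrin receptor, with 596, 130.4 and 163 CPM. Pdcd1lg2, the checkpoint ligand PD-L2, was close in all 3 at 414, 391 and 359 CPM. Cish, a feedback inhibitor of cytokine receptors, had 227, 361 and 346 CPM and Egr2, a transcription factor, 198, 317 and 303 CPM. Retnla, a classic secreted marker of alternative activation, stood at only 21.96, 7.61 and 11.6 CPM, and Fcer2a, the low-affinity IgE receptor, was under 1 CPM in every library.

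The promoters of 6 of these abundant or culture-linked genes are shown. Both cytokines in the medium act through STAT factors, whose palindromic sites can be read by eye, and PU.1 is the factor most tied to the myeloid lineage. All 6 promoters shown carry a marked match, so they do not stand for the abundant genes in general. Each of the sequences searched was absent from most promoters of the most abundant genes (shares below). The sequences run 5′ to 3′ on the gene's strand from 250 bases before to 20 bases after the start listed first in RefSeq (GRCm38.p6), and capitals mark matches to TTCNNNNGAA (the spacing known for STAT6), TTCNNNGAA (the spacing known for STAT5 and other STATs) or GAGGAAGT (a PU.1-type sequence), searched on both strands.
Chil3, chr3:106167545-106167814, minus strand: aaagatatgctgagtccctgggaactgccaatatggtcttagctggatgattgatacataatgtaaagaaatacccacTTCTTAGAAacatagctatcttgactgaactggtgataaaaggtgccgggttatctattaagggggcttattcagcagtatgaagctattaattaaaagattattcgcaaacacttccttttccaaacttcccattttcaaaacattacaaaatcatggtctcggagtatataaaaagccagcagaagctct
Ccl17, chr8:94810203-94810472, plus strand: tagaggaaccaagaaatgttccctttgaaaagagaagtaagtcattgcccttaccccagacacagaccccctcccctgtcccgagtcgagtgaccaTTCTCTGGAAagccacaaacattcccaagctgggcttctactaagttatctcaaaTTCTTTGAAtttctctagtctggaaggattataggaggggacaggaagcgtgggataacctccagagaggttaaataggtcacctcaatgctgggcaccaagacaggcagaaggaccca
Pdcd1lg2, chr19:29410669-29410938, plus strand: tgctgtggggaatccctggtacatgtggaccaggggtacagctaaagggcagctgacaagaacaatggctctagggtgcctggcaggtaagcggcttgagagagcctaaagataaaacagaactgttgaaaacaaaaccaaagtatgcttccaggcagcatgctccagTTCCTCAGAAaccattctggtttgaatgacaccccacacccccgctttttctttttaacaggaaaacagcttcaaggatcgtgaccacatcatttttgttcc
Cish, chr9:107296409-107296678, plus strand: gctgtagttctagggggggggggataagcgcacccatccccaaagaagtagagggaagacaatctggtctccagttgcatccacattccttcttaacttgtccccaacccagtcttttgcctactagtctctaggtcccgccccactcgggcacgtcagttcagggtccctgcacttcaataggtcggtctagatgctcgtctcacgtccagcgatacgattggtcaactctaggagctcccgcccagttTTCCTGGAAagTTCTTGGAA
Itgax, chr7:128129300-128129569, plus strand: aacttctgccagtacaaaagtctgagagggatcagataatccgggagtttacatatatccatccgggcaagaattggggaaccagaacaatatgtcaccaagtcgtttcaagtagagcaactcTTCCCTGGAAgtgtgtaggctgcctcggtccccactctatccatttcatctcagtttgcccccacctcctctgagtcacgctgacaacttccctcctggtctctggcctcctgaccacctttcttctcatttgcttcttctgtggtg
Mmp12, chr9:7344147-7344416, plus strand: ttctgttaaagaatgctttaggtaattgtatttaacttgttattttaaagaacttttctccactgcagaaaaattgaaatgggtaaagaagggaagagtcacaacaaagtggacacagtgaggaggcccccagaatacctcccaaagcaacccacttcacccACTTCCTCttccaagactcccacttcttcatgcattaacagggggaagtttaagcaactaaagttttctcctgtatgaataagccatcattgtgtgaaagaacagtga

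Cish carried 2 matches with the 3-base spacing, beginning at bases 1 and 12 counted from the listed start. Ccl17 carried one of each spacing, beginning 154 and 99 bases before the start. Pdcd1lg2 and Itgax carried the 4-base spacing, beginning 82 and 127 bases before the start, and Chil3 the 3-base spacing, 172 bases before it. Mmp12 carried the PU.1-type letters, on the opposite strand, beginning 88 bases before the start. Over the full window of 250 bases before to 50 after, the 4-base spacing was found in 3 of the 15 IL-4-linked genes with a listed promoter, in 8 of 80 among the 100 most abundant genes and in 6.99% of all 27025 promoters. The 3-base spacing was found in 4 of 15, 5 of 80 and 8.47% of all promoters. The PU.1-type letters were found in 1 of 15, 5 of 80 and 3.28% of all promoters. A match is only a match of letters, and no binding was measured here.

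Promoters of detected and silent genes differed in base composition. Those of the 9082 detected genes with a listed sequence had a median GC content of 60.7% (quartiles 54.3 and 67.0), against 52.0% (45.3 and 60) for 1411 genes at 0 and 52.7% for all promoters. All promoters here are 27025, more than the 17567 genes with a row, so they include genes not measured here. Genes at 0 are only those with a row. CpG-rich promoters, defined as at least 50% GC with an observed-to-expected CpG ratio of at least 0.6, made up 70.1% of detected genes, 21.8% of genes at 0 and 34.1% of all. Among the 100 most abundant genes the share was 52.5% (80 promoters), and among ribosomal protein genes 76.8% (69 promoters).

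Gene classes recognised by symbol held very unequal parts of the RNA (over all genes, 63.6% were detected). Cytosolic ribosomal protein genes held 4.26% ± 0.321 of the counts (SD, n = 3), with 85 of 89 detected and 12 among the 100 most abundant genes. Rpsa was the highest, at 1677, 2057 and 1957 CPM. Mitochondrial ribosomal proteins (78 of 78 detected) held 0.175% ± 0.00591, proteasome subunits (50 of 51) 0.455% ± 0.0132, vacuolar ATPase subunits (18 of 23) 0.459% ± 0.0248 and nuclear-encoded respiratory chain and ATP synthase genes (88 of 94) 0.686% ± 0.0459. The highest of these were Mrpl45 at 52.04, 54.95 and 51.5 CPM, Psmd8 at 217, 404 and 375 CPM, Atp6v1b2 at 747, 875 and 814 CPM and Atp5b at 735, 866 and 904 CPM. Mitochondrially encoded genes were not analysed here. CC and CXC chemokines, with 16 of 29 genes detected, held 1.69% ± 0.371, and the matrix metalloproteinases, with 10 of 22, held 1.65% ± 0.413, nearly all of it Mmp12. Both shares were lowest in replicate 1, at 1.26% and 1.19%. Genes with a Zfp symbol (zinc finger proteins by name, whatever their function) showed the opposite form, with 315 of 388 detected but only 0.831% ± 0.0483 of the counts.

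Lysosomal and endocytic genes were prominent (over all genes, 63.6% were detected). A list of 27 cathepsins and lysosomal proteins held 3.58% ± 0.159 of the counts, with 26 members detected, 11 of them among the 100 most abundant genes and a median of 476 CPM. Beside Psap and Ctsd, Ctsb, a cysteine cathepsin, had 2258, 2141 and 1901 CPM, Lyz2, the myeloid lysozyme, 1984, 1963 and 1880.4 CPM and Cst3, the cathepsin inhibitor cystatin C, 1966, 1522 and 1682 CPM. No member differed by more than 2-fold between replicates 1 and 2, where 12.3% of all 11896 genes at 1 CPM or more in any library (called tested) did. Between replicates 1 and 3 (10.9% of all tested genes) 1 of 27 did, the low Ctse at 2.59, 1.78 and 0.989 CPM. The actin cytoskeleton list (30 of 30 detected, 3.60% ± 0.0981 of counts) and the translation factors (21 of 21, 2.20% ± 0.0600) were steady too, with 1 of 30 and 0 of 21 members that far apart between replicates 1 and 2. The exception among the actin genes was Fscn1, the actin bundler of dendrites, with 352, 129.7 and 142 CPM.

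Genes of antigen presentation were all detected, against 63.6% of all genes. In the class II list (15 of 15, median 163 CPM) the alpha chain H2-Aa had 829.9, 694 and 614 CPM, the beta chain H2-Ab1 354, 322 and 293 CPM and Ciita, the class II master regulator, 83.6, 50.9 and 50.7 CPM. H2-DMa, part of the peptide-loading heterodimer, had 90.5, 185 and 196 CPM and Marchf1, a ubiquitin ligase that lowers surface class II in immature dendritic cells, 100.1, 223 and 208 CPM. Ciita was highest in replicate 1, while H2-DMa and Marchf1 were lowest there. In the class I list (20 of 20, median 161 CPM) H2-D1 had 1539, 1529.7 and 1429.6 CPM, the light chain B2m 1527, 1506 and 1462 CPM and H2-K1 1119.8, 1038 and 932 CPM. No class I member differed by more than 2-fold between any 2 libraries, where 12.3%, 10.9% and 1.35% of all tested genes did (replicates 1 and 2, 1 and 3, and 2 and 3). H2 genes are close copies of each other, so the division of reads among them is uncertain.

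Iron, lipid and sugar genes were read from 3 lists, beside a share of 63.6% detected over all genes. The antioxidant and iron list was detected whole (20 of 20), with Prdx1, a peroxide-reducing enzyme, at 2174, 1961 and 1778 CPM, Gpx1, glutathione peroxidase, at 675, 692 and 707 CPM and Hmox1, which degrades haem, at 272, 196 and 166 CPM. Of the lipid list 17 of 21 were detected, with the fatty acid transporter Cd36 at 963, 1222 and 1151 CPM and the desaturase Scd2 at 845, 1204 and 1130.0 CPM. Apoe, an abundant product of many tissue macrophages, had only 2.06, 0.982 and 1.79 CPM. Glycolytic genes (23 of 24 detected) were led by Gapdh, with Aldoa at 965, 1107 and 1034 CPM and Pkm at 934, 866 and 897 CPM.

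The label was set beside marker lists, and 15 of 16 conventional dendritic cell markers were detected (93.8%, against 63.6% of all genes). The exception, the inhibitory receptor Btla, had 0.824, 1.72 and 1.79 CPM, and without replicate 1 it too passed. The list holds Itgax, the gene of the selected protein, and it was chosen with earlier results of these data known. Its share is therefore no independent check of the label. Itgax and the class II genes are given above. Zbtb46, a transcription factor of conventional dendritic cells, had 71.3, 66 and 71.6 CPM, and Irf4, a factor of type 2 conventional dendritic cells that IL-4 is known to raise, 555, 852 and 811 CPM. Irf8, the factor of the type 1 branch, had 248, 97.99 and 95.8 CPM and was 2.56 times higher in replicate 1 than in the mean of the other 2. Spi1, which encodes PU.1, was nearly equal in all 3 at 169, 176 and 175 CPM. Flt3, the receptor through which dendritic cells form in the body, was low, at 12.8, 3.62 and 3.77 CPM. In bulk RNA, a minority of cells with high levels and many cells with low levels cannot be told apart.

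Markers of dendritic cell subsets were mixed. Of 12 type 1 markers 9 were detected (75%, against 63.6% of all genes). Naaa, a lysosomal amidase, had 262, 628 and 581 CPM and Wdfy4, needed for cross-presentation, 168, 239.5 and 252 CPM. The defining receptors were low: Clec9a had 5.53, 7.49 and 7.91 CPM, and Xcr1, with 0.824, 0.860 and 0.989 CPM, Cadm1 and Gcsam were under 1 CPM in every library. Of 12 type 2 markers 7 were detected (58.3%). They were led by Mgl2, Itgam (CD11b) at 1355, 2096 and 2029 CPM and Irf4, with Sirpa at 656, 511 and 512 CPM. Cd209a (DC-SIGN), which marks monocyte-derived dendritic cells in the body, had 0, 0.368 and 0.0618 CPM, Cd7 was under 1 CPM and Tbx21 was at 0. Of 11 plasmacytoid markers 6 were detected (54.5%). They were led by Runx2 at 42.6, 43.04 and 46.9 CPM, Tcf4 at 41.4, 41.5 and 43.5 CPM and Bst2 at 39.3, 42.4 and 33.8 CPM, all expressed by other cells too. The defining lectin Siglech and Klk1 were at 0 and Ly6d and Cox6a2 stayed under 1 CPM. Itgam, Mgl2, Irf4 and Sirpa were thus high in each library, and the defining receptors Xcr1, Cd209a and Siglech were near 0.

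The cells were labelled immature. Of 18 markers of mature or migratory dendritic cells 17 were detected (94.4%, against 63.6% of all genes), with a median of 178 CPM. Lamp3 was the exception, with 0.0589, 0 and 0 CPM. Ccr7, the receptor that guides cells to lymph nodes, had 1484, 452 and 428 CPM, so it stood 3.37 times higher in replicate 1 than in the mean of the other 2. Cd83 had 472, 180.4 and 182 CPM, Fscn1 is given above, and Relb, a factor of the alternative NF-kB pathway, had 113, 47.3 and 44.8 CPM. Il12b, a subunit of IL-12 and IL-23, had 80.9, 12.1 and 4.64 CPM. In all, 8 of the 17 detected members lay over 2-fold above both other libraries in replicate 1 (Ccr7, Marcks, Cacnb3, Cd83, Samsn1, Fscn1, Relb and Il12b), against 3.8% of all detected genes. One lay that far below, Ccl17, against 2.95% of all. Of 3 costimulatory molecules, Cd86 at 175, 130.0 and 140.3 CPM and Cd40 at 33.6, 18.8 and 15.5 CPM were highest in replicate 1, and Cd80 at 75, 132 and 149 CPM was lowest there.

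Monocyte and macrophage markers were detected at shares nearer that of all genes (63.6%). Of 14 monocyte markers 11 were detected (78.6%), among them Chil3, which the list holds as well. Fn1, fibronectin, had 1361, 640.4 and 633 CPM, the chemokine receptor Ccr2 447, 488 and 524 CPM and Csf1r, the M-CSF receptor, 496, 379 and 346 CPM. Ly6c2, which marks inflammatory monocytes, had 9.30, 18.9 and 26.1 CPM, and Ace was under 1 CPM in all. Of 19 macrophage markers 11 were detected (57.9%), with Cd68, a lysosomal membrane protein, at 278, 314 and 309 CPM, the mannose receptor Mrc1 at 280.0, 223 and 235 CPM, Adgre1 (F4/80) at 142, 136 and 128 CPM and Mertk, a receptor for dying cells, at 24.9, 25.5 and 27.01 CPM. Markers of resident tissue macrophages were low or silent, with Vsig4 at 0 and Cd163 and Folr2 under 1 CPM. Of the 11 detected macrophage markers, 4 lay over 2-fold above both others in replicate 1 (3.8% of all detected genes did), among them Siglec1, a sialic acid receptor, at 10.9, 2.82 and 1.67 CPM. One lay that far below, the high-affinity IgG receptor Fcgr1 (CD64), at 4.65, 19.4 and 21.02 CPM. With members at 1 CPM in any library counted, 8 of 16 lay above (5.31% of all such genes), 2 of which reached 1 CPM in replicate 1 alone. Marco, a scavenger receptor, had 21.96, 2.95 and 0.309 CPM and the complement gene C1qb 19.96, 0.982 and 1.24 CPM. Osteoclast genes (9 of 11 detected, 81.8%) were led by Atp6v0d2, a proton pump subunit, at 543, 571 and 542 CPM. Dcstamp, a fusion protein, had 118, 199 and 180.4 CPM and Itgb3 109, 79.4 and 91.9 CPM, with Calcr at 0 and Oscar under 1 CPM.

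Granulocyte markers differed between the libraries. Of 16 neutrophil markers 11 were detected (68.8%, near the 63.6% of all genes). They were led by the collagenase Mmp8 at 437, 796 and 707 CPM, the calcium-binding S100a9 at 37.5, 120.0 and 215 CPM and the iron-binding Lcn2 at 69.2, 107 and 95.8 CPM. Ly6g and Retnlg stayed under 1 CPM. The list summed to 653 CPM in replicate 1 against 1291 and 1444 CPM, and 4 of the 11 detected members lay over 2-fold below both others there (2.95% of all detected genes did). Mmp8 was the largest part of each sum and was not among those 4. Replicates 2 and 3 differed too, with 3 of 14 tested neutrophil markers over 2-fold apart (1.35% of all tested genes). Basophil and mast cell markers summed to 35.7, 91.6 and 121 CPM, with 7 of 13 detected (53.8%). Cd200r3 had 14.5, 37.5 and 41.7 CPM, the protease Prss34 6.77, 13.8 and 25.5 CPM and Gata2 2.30, 14.3 and 17.9 CPM. Mcpt2 and Tpsb2 were at 0 and Il4, Cma1 and Mcpt1 under 1 CPM. Of the 7 detected members, 5 were over 2-fold lower in replicate 1 than in both others (2.95% of all detected genes). Of 9 eosinophil markers 2 were detected (22.2%). They were the ribonuclease Ear2 at 145, 10.9 and 14.8 CPM and Siglecf at 57.9, 28.9 and 25.96 CPM, both highest in replicate 1. Prg2, the major basic protein, had 0.942, 4.30 and 4.57 CPM.

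Lymphoid, erythroid and non-blood markers were mostly silent. Of 12 B cell markers 2 were detected, Cd22 at 14.7, 14.9 and 13.04 CPM and Cd79b at 2.001, 1.29 and 1.42 CPM, with Igll1 at 0 and Cd79a, Ms4a1, Pax5, Ebf1, Vpreb1, Blk and Fcmr under 1 CPM. Of 12 T cell markers 3 were detected (Cd28, Tcf7 and Cd8a), and Cd3d, Cd3e, Cd3g, Cd4, Cd8b1, Cd2, Bcl11b and Cd5 stayed under 1 CPM. Of 10 natural killer cell markers 3 were detected, the granzymes Gzmb at 1.71, 4.30 and 4.57 CPM and Gzma at 1.71, 3.93 and 3.15 CPM and the receptor chain Il2rb. No erythroid marker of 11 was detected, and the list, globins included, summed to 1.41, 1.72 and 2.53 CPM. The 10 megakaryocyte markers held 6 detected members (60%, near the 63.6% of all genes), led by Vwf, the carrier of factor VIII, at 109, 73.2 and 61.3 CPM. The 10 stem and progenitor markers held 5 (50%), led by Cd34 at 18.7, 18.7 and 26.1 CPM and Sox4 at 29.8, 6.32 and 7.17 CPM.

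Fibroblast markers held 2 detected members of 12, Thy1 at 11.4, 94.6 and 124 CPM and Pdgfrb at 1.001, 1.90 and 1.85 CPM. The collagens Col1a1 and Col1a2 were under 1 CPM and Col3a1 and Dcn at 0, so Thy1, a surface glycoprotein also found on T cells, was higher in replicates 2 and 3 while the matrix genes of the same list were near 0. Of 8 endothelial markers 3 were detected, Pecam1 at 84.4, 117 and 118 CPM, the VEGF receptor Flt1 at 29.1, 104 and 114 CPM and its relative Kdr at 1.18, 6.45 and 5.44 CPM, with Tek at 0 and Cdh5 under 1 CPM. Across 5 lists of epithelial, liver, neural, muscle and pancreas or gut markers, 7 of the 41 genes with a row were detected and 9 were at 0. Cdh1 (E-cadherin), an epithelial adhesion protein that dendritic cells of skin also carry, was the abundant one at 400.2, 599 and 635 CPM, while its list partners Krt5, Krt8 and Cldn3 were at 0. Mbp at 104, 67.9 and 71.9 CPM, Lyz1 at 76.8, 80.9 and 77.5 CPM, whose close copy Lyz2 is far more abundant, and Hp at 15.4, 4.67 and 7.05 CPM followed, and Epcam, Cela1 and Tnnt3 were the other three. Over every lineage list, leaving out the conventional dendritic cell markers, 115 of 254 genes were detected, where 63.6% of all genes were. These 254 still include the other dendritic cell lists and the monocyte and macrophage lists. Without replicate 1 the number detected was 124.

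**Figure D2:**
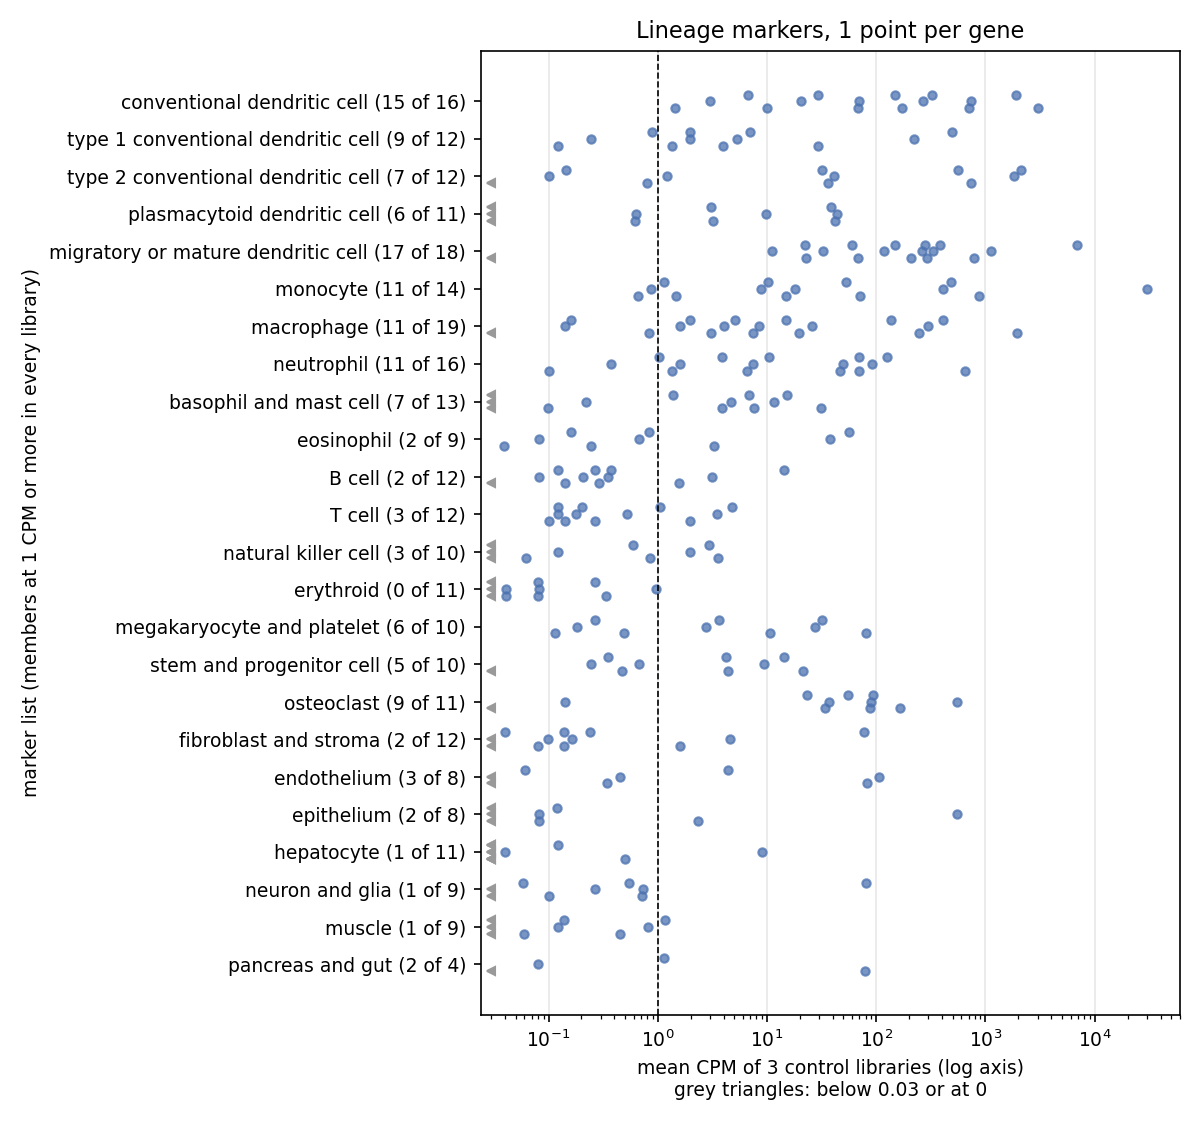
Lineage markers, 1 point per gene, as the mean CPM of the 3 control libraries on a log axis. Rows are marker lists with the number of members at 1 CPM or more in every library, the dashed line is 1 CPM and grey triangles are genes below 0.03 CPM or at 0. The conventional dendritic cell list (15 of 16) and the mature dendritic cell list (17 of 18) lie almost wholly right of the line, and no erythroid marker of 11 reached it in every library.

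Receptors for the 2 cytokines of the medium were detected throughout. Csf2rb had 787 ± 136 (SD, n = 3) CPM per kb, and its near-copy Csf2rb2, a beta chain specific for IL-3, had 1395, 1569 and 1466 CPM, with the division of reads between the pair uncertain. Csf2ra, the private alpha chain of the GM-CSF receptor, had 160.4, 174 and 163 CPM, and per kb of transcript it stood at 89.7 ± 3.97 (SD, n = 3), below the beta chain in every library. Il4ra, the IL-4 receptor alpha chain, had 228, 287 and 263 CPM, and its partner chains Il2rg and Il13ra1 had 186, 191 and 192 CPM and 44.97, 98.1 and 97.05 CPM. Il13ra1 was lower in replicate 1, and Il2rg was level. Downstream, Jak2 had 1749, 1329.9 and 1291 CPM, Stat5a 181, 184 and 174 CPM and Stat6 241, 241 and 238 CPM. Csf2ra, Stat5a and Stat6 differed by less than 1.1-fold across the libraries.

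The wider list of growth factor and cytokine receptors, which includes these chains, had 39 of 42 genes detected (92.9%, against 63.6% of all genes), and 33 reached 10 CPM in every library. Tnfrsf1b, a TNF receptor, had 518, 251 and 210.1 CPM and Il7r 306, 155 and 131 CPM, both highest in replicate 1. Il21r had 138, 208 and 187 CPM and Il10ra, the receptor of the anti-inflammatory IL-10, 119.8, 144 and 146 CPM. The list also holds 2 secreted proteins, the antagonist Il1rn at 258, 525 and 484 CPM and Tslp, which with Il5ra was under 1 CPM everywhere. The third undetected member was Il23r. Replicate 1 lay over 2-fold above both others for 5 of the 39 detected members (3.8% of all detected genes) and below for 3 (2.95%).

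Of 24 chemokine receptors 9 were detected (37.5%, against 63.6% of all genes). Ccr7 and Ccr2 are given above, and Ccr1, a receptor for Ccl6 and Ccl9, had 312, 331 and 337 CPM. Cxcr4 had 130.3, 21.9 and 25.8 CPM, 5.46 times higher in replicate 1 than the mean of the others, and Cxcr2, a receptor of neutrophil-attracting chemokines, went the other way at 29.4, 81.9 and 96.6 CPM. Ccr4, the receptor of Ccl17 and Ccl22, was low at 11.2, 3.50 and 4.27 CPM. Cxcr3 was at 0, and Ccr3, Ccr8, Ccr10, Cxcr1, Xcr1 and the 4 atypical receptors Ackr1 to Ackr4 stayed under 1 CPM.

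Pattern recognition genes were read from lists of receptors, partners and cytosolic sensors. Of 12 toll-like receptors 9 were detected (75%, against 63.6% of all genes). Tlr4, the lipopolysaccharide receptor, had 239, 325 and 330.3 CPM, Tlr13, a sensor of bacterial ribosomal RNA, 167, 97.3 and 96.6 CPM, and Tlr2, a lipopeptide receptor, 46.98, 73.6 and 84.1 CPM. Tlr8 had 121, 27.9 and 30.5 CPM, over 4 times higher in replicate 1, and Tlr3, the sensor of double-stranded RNA, only 2.65, 1.84 and 1.42 CPM. Tlr5 and Tlr12 stayed under 1 CPM. Of 15 partners 14 were detected, among them the chaperone Unc93b1 at 339, 404 and 378 CPM, Cd14 at 141, 114 and 105 CPM and Irak1, a signalling kinase, at 109.5, 116 and 114 CPM, but Ly96 (MD-2), the partner of Tlr4, had 7.18, 3.93 and 5.44 CPM. Of 22 cytosolic sensors 19 were detected (86.4%). Naip2, a sensor of bacterial secretion proteins, had 159, 172 and 155 CPM, Aim2, a DNA sensor, 119, 127 and 118 CPM and Nlrp3 62.7, 138 and 145 CPM, while Nlrp6 was at 0.

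Uptake receptors included several abundant genes. Of 25 C-type lectins 19 were detected (76%, against 63.6% of all genes). Clec4n (dectin-2) had 882, 2615 and 2371 CPM and Clec7a (dectin-1) 1521, 1014 and 915 CPM, so the 2 fungal receptors differed between libraries in opposite directions. Ly75 (DEC-205), an endocytic receptor of dendritic cells, had 621, 293 and 296 CPM and was 2.10 times higher in replicate 1. Clec4f was at 0, and Cd207 (langerin) and Cd209a, Cd209d and Cd209e were under 1 CPM. Fc receptors (6 of 12 detected, 50%) were led by the inhibitory Fcgr2b at 208, 679 and 658 CPM. The activating Fcgr3 had 304, 588 and 537 CPM and their signalling chain Fcer1g 142, 245 and 239 CPM. All 3 were lowest in replicate 1. Pigr, Fcamr, Fcmr and Fcer2a stayed under 1 CPM. Of 23 scavenger receptors 18 were detected (78.3%). Cd36 is given above, Axl, a receptor for dying cells, had 421, 1053 and 1004 CPM and Lrp1 431, 631 and 558 CPM. Adgrb1, Megf10, Stab2 and Cd163 were under 1 CPM.

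Adhesion and inhibitory receptors were dominated by a few genes. Of 26 integrin genes 16 were detected (61.5%, near the 63.6% of all genes). Itgax, Itgam and their common partner Itgb2, at 1496, 1891 and 1767 CPM, form complement receptors 3 and 4, and per kb they stood at 465 ± 87.9 (SD, n = 3), 390.2 ± 87.5 (SD, n = 3) and 578 ± 68.03 (SD, n = 3). Itga4, which pairs with Itgb1 in leukocyte homing, had 391, 71.7 and 78.4 CPM. Itgb6 and Itga11 were at 0, and Itga3, Itga7, Itga8, Itga9, Itgad and Itgb4 under 1 CPM. All 20 inhibitory and paired receptors were detected, led by Lilrb4a at 1148, 2441 and 2227 CPM, Sirpa as above and Lilr4b at 293, 532 and 486 CPM, which is a close relative of Lilrb4a. Of 21 costimulatory and checkpoint ligands 17 were detected (81%). Cd274 (PD-L1) had 577, 791 and 688 CPM, Pdcd1lg2 is given above and Icam1 had 171, 171 and 177 CPM. Vtcn1 was at 0 and Cd276, Cd70 and Tnfsf18 were under 1 CPM. Of 17 tested members 1 was over 2-fold apart between replicates 1 and 2 (12.3% of all genes were) and 2 between replicates 1 and 3 (10.9% of all).

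**Figure D3:**
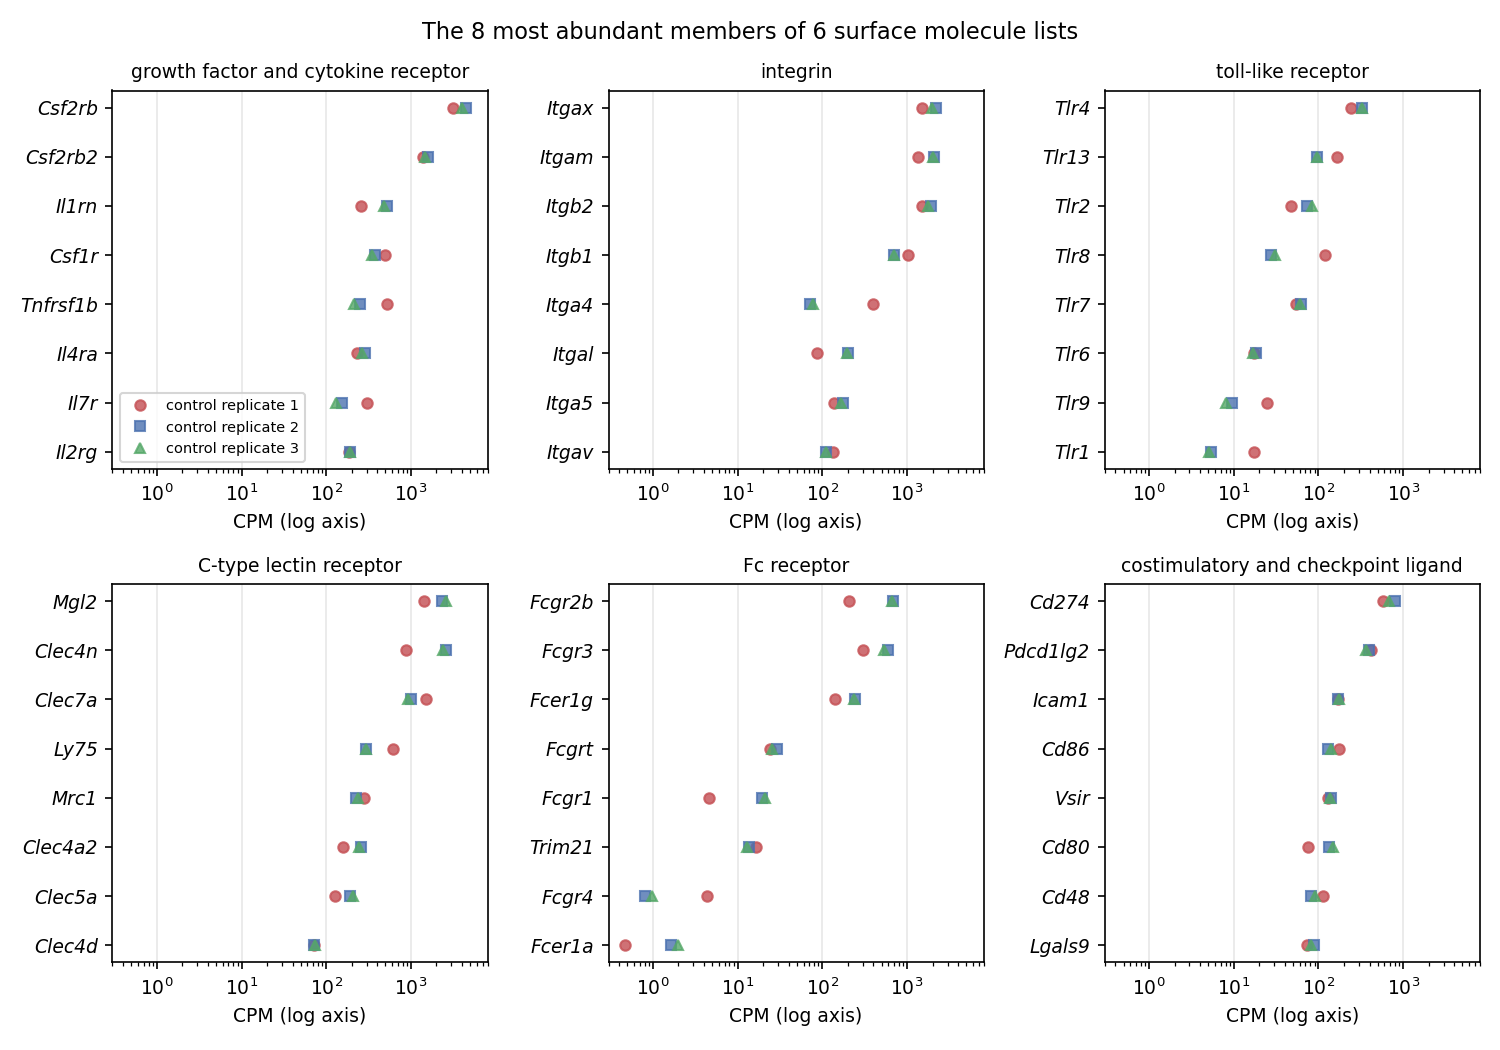
The 8 most abundant members of 6 lists of surface molecules, with CPM on a log axis and 1 symbol per control library. Replicate 1 lies to the right for Tlr8 (121 CPM) and to the left for Fcgr2b (208 CPM), while the 3 libraries nearly coincide for Icam1.

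Secreted signals included some of the most abundant transcripts. Of 32 chemokines in the list 19 were detected (59.4%, near the 63.6% of all genes), and the list summed to 12373, 19729 and 18954 CPM. Ccl22, Ccl6, Ccl9 and Ccl17 are given above. Ccl24, an eosinophil attractant, had 313, 309.8 and 269 CPM and Cxcl3 203, 222 and 193 CPM, both level between libraries. Ccl3 and Ccl4, attractants of monocytes and T cells, had 12.3, 162 and 135 CPM and 3.59, 91.8 and 91.7 CPM, and both were over 10 times lower in replicate 1. Ccl5, another T cell attractant, had the opposite order at 318, 169 and 126 CPM. Xcl1, Cxcl15 and Ccl19 were at 0, and Ccl1, Ccl8, Ccl12, Ccl20, Ccl27a, Ccl28, Cxcl9, Cxcl10, Cxcl12 and Cxcl14 were under 1 CPM.

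Of 42 cytokines 24 were detected (57.1%, also near that of all genes). Spp1, osteopontin, had 556, 2083 and 2226 CPM, Grn, progranulin, 585, 709.6 and 648 CPM and Csf1, the M-CSF ligand, 634, 442 and 429 CPM. Tgfb1 had 214, 489 and 451 CPM, Il1b 63.05, 67.2 and 56.3 CPM, Tnf 13.95, 76.7 and 75.97 CPM and Il6 35.8, 20.1 and 18.4 CPM. Igf1, a growth factor of macrophages, had 205, 14.5 and 14.8 CPM and was 14.0 times higher in replicate 1 than the mean of the others. Il21 and Ifnb1 were at 0, and Il4, Il5, Il10, Il13, Il22, Ifng, Csf2, Csf3 and Kitl were under 1 CPM. Csf2 and Il4, which encode the 2 cytokines supplied to the culture, were thus near the floor of the cells' own RNA.

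All 46 listed transcription factors of dendritic and myeloid cells were detected (63.6% of all genes were), with a median of 70.4 CPM. Bhlhe40 was the highest at 1061, 1038 and 1002 CPM, with a coefficient of variation of 2.85%, followed by Irf4 and Rel, an NF-kB subunit, at 705, 305 and 298 CPM. Irf5, a factor of inflammatory gene expression, had 288, 449.7 and 445 CPM and Id2, which favours dendritic over lymphoid fate, 418, 369 and 292 CPM. Cebpa, a factor of granulocyte and monocyte precursors, had 38.1, 37.1 and 42.8 CPM, and Nr4a1, which marks patrolling monocytes, 1.06, 1.35 and 1.98 CPM. Replicate 1 lay over 2-fold above both others for 7 of these 46 genes (3.8% of all detected genes) and below for 3 (2.95%).

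Several gene classes known from specialised tissues were mostly silent. Of the 102 olfactory receptor genes with a row, 55 were at 0 and 97 under 1 CPM in every library. The 4 detected ones were led by Olfr1033 at 15.2, 42.7 and 38.9 CPM. Of 39 vomeronasal receptors 24 were at 0 and 1 was detected, Vmn1r58 at 3.08, 3.67 and 2.95 CPM. Of 29 keratin genes 14 were at 0 and none was detected, with Krt222 the highest at 1.30, 0.921 and 0.433 CPM. Protocadherins had 19 of 48 at 0, serpins 15 of 46, cytochromes P450 21 of 63, GABA and glutamate receptors 12 of 32 and homeobox Hox genes 7 of 22, where 10.5% of all genes were at 0. Some members stood out from their silent classes: Cyp1b1 had 169, 85.6 and 74.7 CPM, Pcdh7 32.7, 38.6 and 33.1 CPM, Cldn1, a tight junction protein, 176, 80.5 and 93.6 CPM, Serpinb6b 282, 71.5 and 90.6 CPM and Apol7c 325, 21.7 and 24.9 CPM. Cldn1, Serpinb6b and Apol7c were highest in replicate 1. A count of 0 allows up to 3 counts, or 0.177 to 0.185 CPM, in each library, by counting error only.

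The 3 libraries agreed to unequal degrees. Over the 11896 genes at 1 CPM or more in at least 1 library, replicates 2 and 3 differed by more than 2-fold at 161 genes (1.35%), with a median difference of 1.07-fold. Replicate 1 differed from replicate 2 at 1458 genes (12.3%) and from replicate 3 at 1299 (10.9%), with median differences of 1.23-fold and 1.22-fold. Across these genes, which are not independent replicates, Pearson's r of log2 CPM was 0.993 for replicates 2 and 3, 0.949 for replicates 1 and 2 and 0.951 for replicates 1 and 3. Replicate 1 lay over 2-fold above both others at 632 genes (5.31%) and below both at 444 (3.73%). The corresponding numbers were 5 and 71 for replicate 2 and 28 and 35 for replicate 3. Some of the 11896 genes reached 1 CPM in replicate 1 alone, which adds to its count above. Among the 11179 detected genes, replicate 1 lay that far above both others at 425 (3.8%) and below both at 330 (2.95%). The common biological coefficient of variation by edgeR was 0.238 over 11571 genes, and 0.0636 without replicate 1. The closest pair, replicates 2 and 3, had a chi-square per degree of freedom of 5.07 and was kept as separate libraries. Of the 100 most abundant genes of each library, 77 were shared by all 3, and 95 by replicates 2 and 3.

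**Figure D4:**
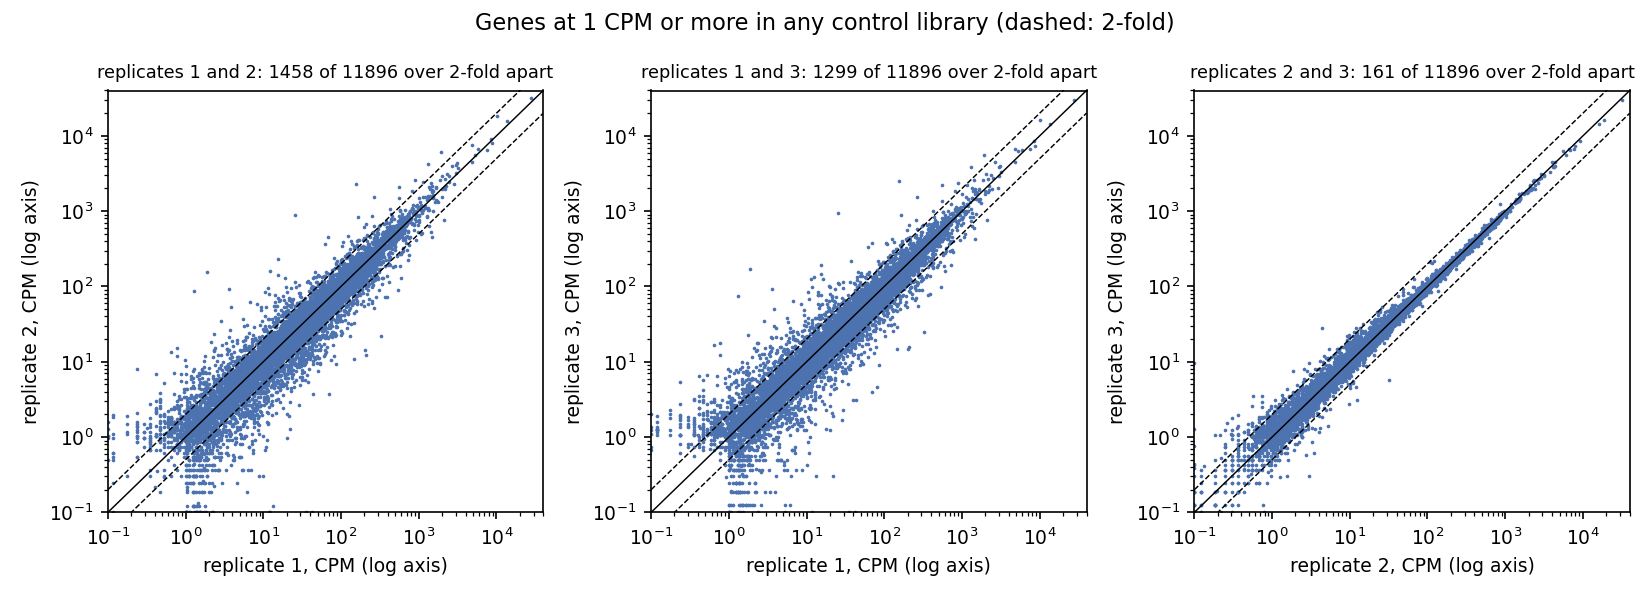
Pairwise levels of the 11896 genes at 1 CPM or more in any control library, both axes in CPM on a log scale, with values under 0.1 drawn at the axis edge. The solid line is equality and the dashed lines a 2-fold difference. Replicates 2 and 3 (161 genes apart) lie along the line, and both panels with replicate 1 (1458 and 1299 apart) are wider.

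Abundant genes differed in how far they held still. Over the 80 genes that averaged 1000 CPM or more, the median coefficient of variation was 11.5%. Prkcd, a protein kinase C of myeloid cells, was the steadiest at 1209, 1189 and 1189 CPM (0.953%), followed by B2m (2.24%) and Lyz2 (2.82%). The most variable was Plet1, a lipid-anchored surface protein, at 157, 2303 and 2547 CPM (78.8%), followed by Ccl17 (66.5%), the membrane mucin Tmem123 at 2115, 765 and 762 CPM (64.3%) and Spp1 (57.1%). In all 4 genes replicate 1 was the outlying library, the highest for Tmem123 and the lowest for the others. Cdkn1a, an inhibitor of the cell cycle, varied by 44.8%, at 550.3, 1490.0 and 1344 CPM.

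In the set of genes averaging 10 CPM or more, those farthest below in replicate 1 were Ccn3, a matrix-associated signalling protein, at 1.88, 154 and 169 CPM and Hs3st3b1, a heparan sulfate sulfotransferase, at 1.30, 86.6 and 75.4 CPM. Next were Car4, carbonic anhydrase 4, at 25.7, 895 and 944 CPM, followed by Ccl4, Plet1, Socs3, a feedback inhibitor of cytokine signalling, at 15.5, 230.3 and 191 CPM, Gja5, Ccl3, Galnt3 and Thy1. Those farthest above, after the Y-linked Ddx3y and Eif2s3y, were Dnah2, a dynein heavy chain, at 69.3, 3.75 and 3.96 CPM, Clu, the secreted chaperone clusterin, at 209, 12.4 and 15.8 CPM, then Apol7c, Igf1, Sned1, Ndrg4, Ear2 and Il12b. These 20 genes were picked for the distance of replicate 1 from the mean of the other 2, so they cannot show how far replicates 2 and 3 agree. Replicate 1 is also part of the mean that replicate 3 was set against, so overlap between their farthest genes follows in part from the measure. Of the 20 genes farthest out in replicate 3, 14 were among those of replicate 1. The other 6 were the zinc finger genes Zfp966 at 4.01, 4.37 and 28.5 CPM and Zfp967 at 23.3, 31.9 and 5.75 CPM, Ngp, a neutrophil granule protein, at 16.4, 67.1 and 126 CPM, the lipase Lipg at 1.77, 11.97 and 22.6 CPM, the acute-phase gene Saa3 at 39.97, 12.4 and 3.09 CPM and Rsad2. Both zinc finger genes lie on chromosome 2 (175918283-175931100 and 176521004-176533821), and replicate 3 was highest for Zfp966 and lowest for Zfp967. Whether the counting divided reads between them differently in each library was not tested.

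Cell division and interferon genes also differed between libraries. All 32 cell cycle genes were detected (63.6% of all genes were), and the list summed to 2898, 1082 and 1709 CPM, so replicate 3 lay between the others. Mki67, the proliferation marker Ki-67, had 419, 114 and 204 CPM, Top2a, a topoisomerase of dividing cells, 335, 107 and 209 CPM and Pcna, the replication clamp, 206, 130.5 and 153 CPM. Between replicates 1 and 2, 26 of 32 genes were over 2-fold apart (12.3% of all genes were), between replicates 1 and 3, 9 of 32 (10.9% of all) and between replicates 2 and 3, 7 of 32 (1.35% of all). Of 18 detected interferon-stimulated genes 7 lay over 2-fold above both others in replicate 1 (3.8% of all detected genes). Replicates 2 and 3 differed here too. Of 21 tested interferon-stimulated genes, 10 were over 2-fold apart between replicates 1 and 2 and 13 between replicates 1 and 3. Between replicates 2 and 3 the number was 6 of 21, against 1.35% of all genes. Rsad2, an antiviral enzyme, had 29.6, 4.97 and 2.29 CPM, and the abundant Ifitm3, a membrane antiviral protein, had 164, 241 and 226 CPM with the opposite order. The part that the Y-linked split, the neutrophil and basophil markers or the dividing cells play in the other differences of replicate 1 was not tested.

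**Figure D5:**
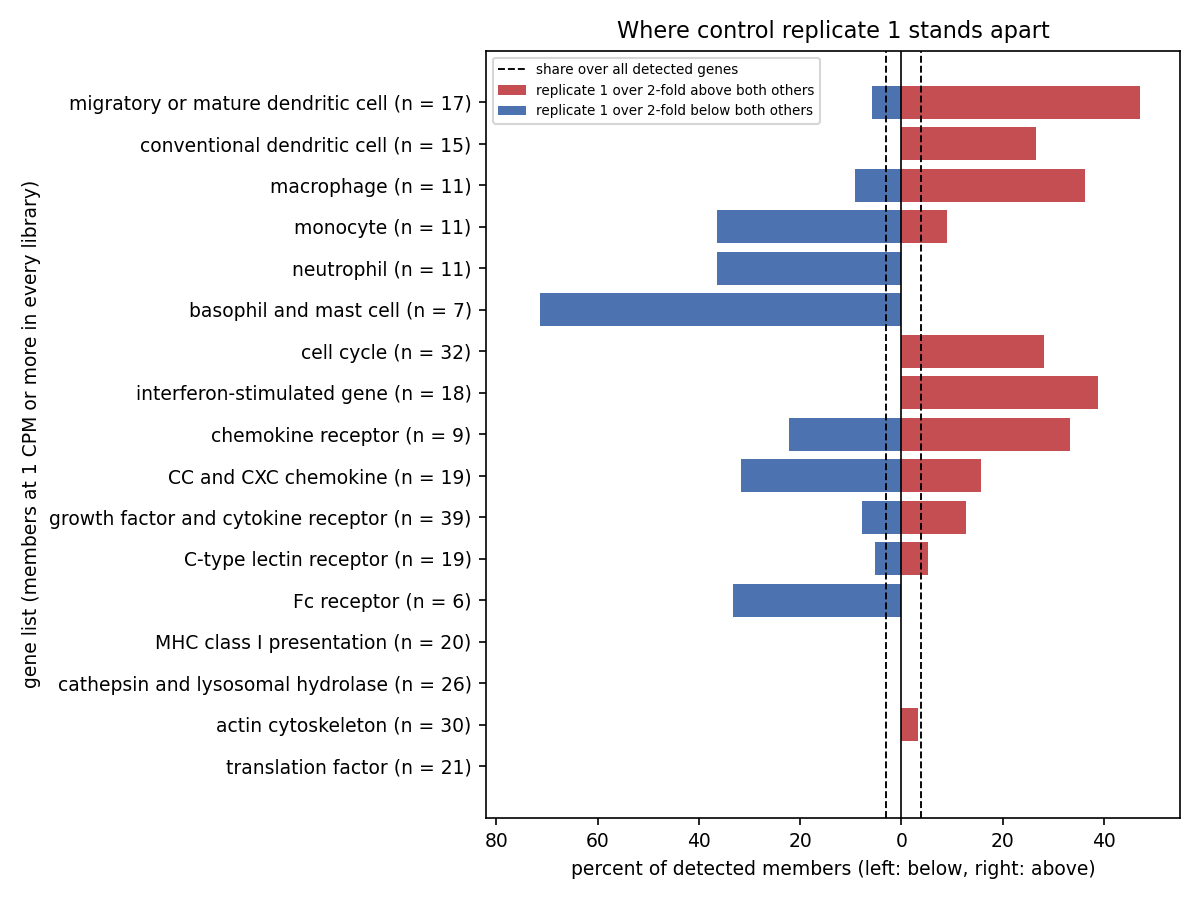
Shares of detected list members in which control replicate 1 lay over 2-fold above both other libraries (right, red) or below both (left, blue), in percent. Dashed lines mark the shares over all 11179 detected genes, 3.8% above and 2.95% below. Mature dendritic cell (8 of 17) and interferon-stimulated (7 of 18) genes lie to the right and basophil and mast cell genes (5 of 7) to the left, while class I presentation and translation factor genes show no bar.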

How the data were processed

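The 3 control samples were measured by RNA sequencing on DNA nanoballs, per the labels' protocols. The deposited values were estimated counts (reads assigned to a gene, without normalization), of which 8.66% to 9.03% per library were not whole. HISAT, Bowtie2 and the build GRCm38.p6 are named in the submitters' processing notes. How reads were counted, with which annotation, strand setting and filters, is not given in the sources used here, so antisense, overlapping and near-identical genes may share reads. A RefSeq table of the same build gave symbols for 17520 of 17567 rows (99.73%), and GENCODE M21 gave transcript lengths for 96.7%. Counts were scaled to CPM with TMM factors (1.03, 0.977 and 0.997 for replicates 1, 2 and 3) in edgeR 4.0.16 (R 4.3.3). Differences between libraries used log2 CPM with a prior count of 2. The biological coefficient of variation came from rounded counts kept by filterByExpr (minimum count 10, minimum total 15). The coefficient of variation was tested on simulated counts. The 2-fold count was tested only on simulated counts with counting error alone, with edgeR's own log2 CPM and no TMM factors. That setting has less spread than these libraries. With 1 group there was no test between groups. Alternatives were DESeq2 1.42.0 size factors, library totals, other filters, another prior count and leaving out each library.

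Members and the 57 gene lists (865 genes with a row) were chosen with earlier results of these data known. Named genes were the 25 most abundant, the 3 most abundant and the silent members of each list, the 10 farthest above and below in each library, the most abundant of each symbol class, and 16 fixed genes with the Y-linked ones. Other genes named were chosen after their values were seen. Xist and some list members that the rule would name are not reported here.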

Additional observations from a re-analysis of the deposited data

How the results depend on the processing

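Of 54 alternatives over 10 results, 45 left a count within 1.5 times the reported one, a share of counts within 1 SD or the coefficient of variation within 10%, and 9 did not. The common biological coefficient of variation, 0.238 with all 3 libraries, ranged from 0.0636 (without replicate 1) to 0.291 (without replicate 3), and was 0.277 without replicate 2. Fewer or more low genes changed the numbers of genes over 2-fold apart. With no filter on low counts they were 2246 for replicates 1 and 2, 2097 for replicates 1 and 3 and 787 for replicates 2 and 3, and with a minimum mean of 10 CPM they were 654, 532 and 26. No paired analysis was possible because the 3 samples form 1 group and their numbers only name them. A count of 3 is the floor of each library, so levels under about 1 CPM rest on few reads. Counting genes at 1 CPM in any library instead of every library, a choice compared after seeing the data, changed the members of replicate 1 over 2-fold from both others from 4 to 8 macrophage markers and from 7 to 10 interferon-stimulated genes above, and from 4 to 5 neutrophil and from 5 to 6 basophil and mast cell markers below.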
